A study of Homo sapiens with 12 samples.

Results

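The genes described here are 10 members of the epidermal growth factor receptor (EGFR) system, taken by name from the 58676 genes of the deposited table. They are 4 ligand genes (AREG, EREG, HBEGF and TGFA), 3 receptor genes (EGFR, ERBB2 and ERBB3) and 3 genes for inhibitors that are themselves induced by the pathway (ERRFI1, SPRY2 and SPRY4). All 10 names were found. The cells were A549, an established human lung adenocarcinoma line. The 3 genotypes were labelled Control1 (here the control line), NFE2L1 KO1 and NFE2L1 KO2 (here KO1 and KO2). NFE2L1 encodes a transcription factor that raises the genes of proteasome subunits in cells whose proteasome is blocked. Each line received DMSO as vehicle, or bortezomib, an inhibitor of the proteasome, at 200 nM, in both cases for 4 h, and each of the 6 groups held 2 libraries. The labels do not say how the knockouts were made, whether a line was 1 clone, or whether the libraries of a group came from separate cultures, so p-values measure only the spread between these libraries, which may be technical.

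EGFR ligands are made as membrane-anchored precursors and are released by ADAM proteases. Bound receptors of the ERBB family pair up, phosphorylate each other and activate the RAS-ERK and PI3K pathways; ERBB2 has no known ligand of its own and ERBB3 has little kinase activity, so both work mainly in pairs with other members. The signal also induces its own brakes: ERRFI1 (also called MIG6) binds the EGFR kinase domain and blocks it, and the Sprouty proteins SPRY2 and SPRY4 dampen RAS-ERK signalling. AREG, EREG and HBEGF are themselves induced by RAS-ERK signalling and by cell stress, and they are commonly expressed in lung carcinoma cells.

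Expression is given as FPKM, which scales the reads of a gene to its length and to all reads assigned to genes and allows levels of different genes to be compared. The libraries held 13211608 to 23819258 assigned reads. In the titles, 1 library of each group has the suffix R2 and the other has R1 (KO lines) or none (control line); values are given below in the order first library, R2. The 6 R2 libraries stood apart, with 12.3% to 19.3% of reads on mitochondrial genes against 5.44% to 6.8% in the other 6. Of the members, 7 (EGFR, ERBB2, ERBB3, AREG, EREG, TGFA and SPRY4) were higher in the R2 library than in its partner in 6 of 6 groups, by a median of 1.29-fold for SPRY4 up to 2.16-fold for ERBB3. NFE2L1 transcript was at 72.7 and 151 FPKM in the control line with vehicle, 8.45 and 14.8 in KO1, and 18.6 and 33.6 in KO2. With bortezomib it was at 109 and 189 FPKM in the control line, 27 and 35.8 in KO1, and 36.7 and 50.8 in KO2. All 6 epithelial markers examined were detected, and 5 of 6 alveolar type II markers stayed below 1 FPKM in every library, with SFTPA1 at 0. The exception was ABCA3, at 3.6 to 28.3 FPKM. Of 11 markers of leukocytes, endothelium and fibroblasts, 9 stayed below 1 FPKM in every library, COL1A1 reached 23.3 and LUM 1.4.

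The 2 most abundant ligand transcripts were those of EREG and AREG, with medians over the 12 libraries of 128 and 117 FPKM. EGFR followed with 54.2, ERRFI1 with 23.7, ERBB2 with 12.7, TGFA with 8.38, HBEGF with 5.73, SPRY4 with 3.67, SPRY2 with 3.23 and ERBB3 with 0.735. ERBB3 rested on 37 to 382 reads per library and did not reach the mean of 1 FPKM required for testing, so 9 of the 10 members were tested. The lowest read count of a tested member was 33, for SPRY2 in 1 bortezomib library of the control line.

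**Figure D1:**
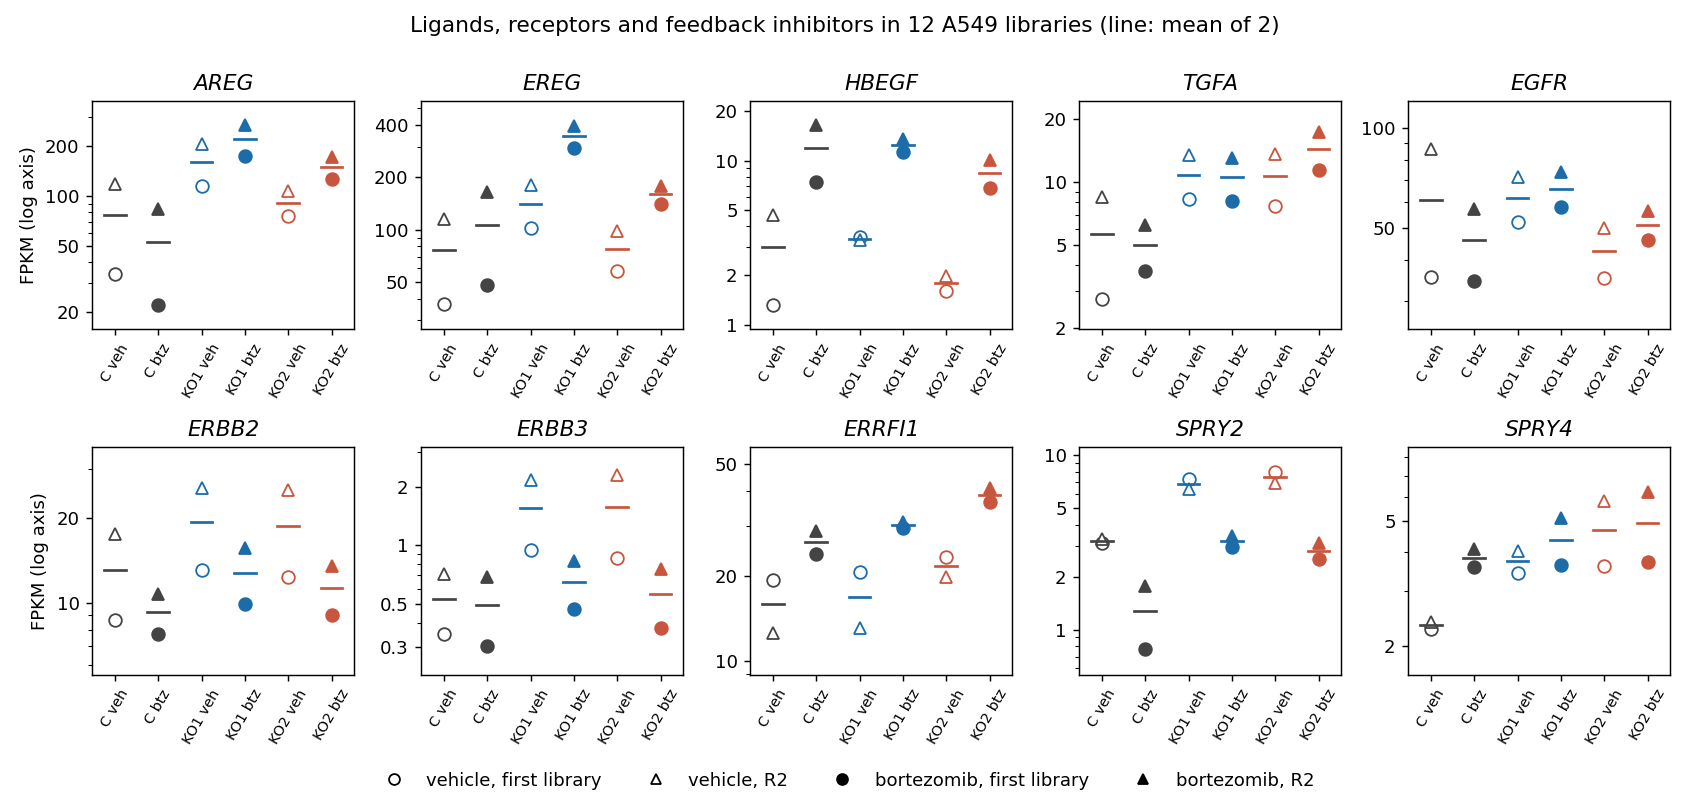
Level of each of the 10 genes in every library, as FPKM on a log axis, by group (C, control line; veh, vehicle; btz, bortezomib). Open symbols are vehicle and filled symbols bortezomib, circles the first library and triangles R2, and the short line is the mean of the 2 libraries. HBEGF is higher and SPRY2 lower with bortezomib in every line, while AREG is lower with bortezomib in the control line and higher in KO1 and KO2.

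AREG (ENSG00000109321, chr4:74445134-74455009) and EREG (ENSG00000124882, chr4:74365143-74388751) lie on the plus strand of the same chromosome in GRCh38, and HBEGF (ENSG00000113070, chr5:140332843-140346631) lies on the minus strand. The 250 bases upstream of the RefSeq start (GRCh38.p14) are shown for these 3 ligand genes. The windows are chr4:74444886-74445135 for AREG, chr4:74364895-74365144 for EREG and chr5:140346604-140346853, minus strand, for HBEGF. Capitals mark matches to the motifs searched.
AREG: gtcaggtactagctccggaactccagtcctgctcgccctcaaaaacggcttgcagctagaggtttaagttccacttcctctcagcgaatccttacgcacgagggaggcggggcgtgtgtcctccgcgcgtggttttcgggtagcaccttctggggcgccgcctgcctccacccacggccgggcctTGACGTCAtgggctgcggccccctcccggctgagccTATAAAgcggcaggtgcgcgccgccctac
EREG: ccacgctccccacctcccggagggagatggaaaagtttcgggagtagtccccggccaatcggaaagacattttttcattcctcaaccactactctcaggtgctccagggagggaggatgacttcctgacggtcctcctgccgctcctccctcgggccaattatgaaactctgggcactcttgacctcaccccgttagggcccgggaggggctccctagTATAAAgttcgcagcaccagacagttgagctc
HBEGF: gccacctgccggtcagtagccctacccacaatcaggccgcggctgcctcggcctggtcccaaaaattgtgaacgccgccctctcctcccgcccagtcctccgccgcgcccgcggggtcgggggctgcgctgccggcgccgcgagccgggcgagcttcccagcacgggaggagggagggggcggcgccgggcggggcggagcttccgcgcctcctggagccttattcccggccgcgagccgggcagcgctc
A total of 5 motifs were searched on both strands in the upstream 250 bases of 9 members; ERBB3 had no window. They were a cAMP response element (TGACGTCA, found in 1.65% of all 35116 windows of this length), an AP-1 site (TGANTCA, 6.57%), the core of an antioxidant response element (TGACNNNGC, 10.9%), a heat shock element pair (GAANNTTC, 5.78%) and a TATA box (TATAAA, 10.7%). The AREG window held the cAMP response element at -65 to -58 from the start and the TATA box at -29 to -24. In the EREG window the only match was the TATA box, at -32 to -27, and the HBEGF window held none of the 5. ERBB2 held an AP-1 site and a heat shock element pair, SPRY4 the antioxidant core, and EGFR, TGFA, ERRFI1 and SPRY2 none. The RefSeq start used for SPRY4, chr5:142324247 on the minus strand, lies inside its span in the deposited table, which reaches chr5:142326455. The SPRY4 window is therefore not upstream of that span. These matches describe letters in a window and say nothing of binding.

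The first comparison was of bortezomib with vehicle. HBEGF and ERRFI1 rose and SPRY2 fell over the 3 lines (limma on log2(FPKM + 1), no replicate term), so 3 of the 9 tested members were called beside 11.6% of all 12194 tested genes. When the suffix was added as a replicate block, EREG and SPRY4 also rose and ERBB2 also fell, giving 6 of 9 members beside 54.9% of all genes. Without a model, EREG, HBEGF, ERRFI1 and SPRY4 were higher with bortezomib in all 6 library pairs of the same line and position, as were 24.8% of tested genes, and ERBB2, ERBB3 and SPRY2 were lower in all 6, as were 23.8%. Of these, ERBB3 is not among the tested genes. Values with the replicate block are given because libraries with the same suffix deviated together. In bulk RNA, a lower level cannot be told apart from fewer expressing cells.

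Line by line, no member was called without the block, where limma called 0.467% of genes in the control line, 0.238% for KO1 and 0.32% for KO2. An unadjusted limma p under 0.05 was reached by 2, 3 and 3 members, beside 1498, 1153 and 1169 of all 12194 tested genes. In the blocked fit, 5 of 9 members were called in the control line (32.4% of all genes), 6 in KO1 (27.7%) and 6 in KO2 (27%). HBEGF, ERRFI1, SPRY2 and AREG were called in each of the 3 lines, SPRY4 in the control line, and ERBB2 and EREG in KO1 and KO2. With 1 library left out at a time, the HBEGF calls in the 3 lines and the EREG calls in KO1 and KO2 were kept in 12 of 12 fits and those of SPRY2 in 10 to 12. The ERRFI1 call was kept in 6 of 12 fits in the control line (0.30 to 1.14, adjusted p up to 0.501), lost without either R2 control library, either KO1 bortezomib library or either KO2 vehicle library, and in 9 of 12 in KO1 and in KO2. The ERBB2 call was kept in 5 of 12 in KO1 (-0.64 to -0.42), lost among others when any 1 of the 4 KO1 libraries was left out, and in 9 of 12 in KO2, and the SPRY4 call in the control line was lost when any 1 of its 4 libraries was left out.

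**Figure D2:**
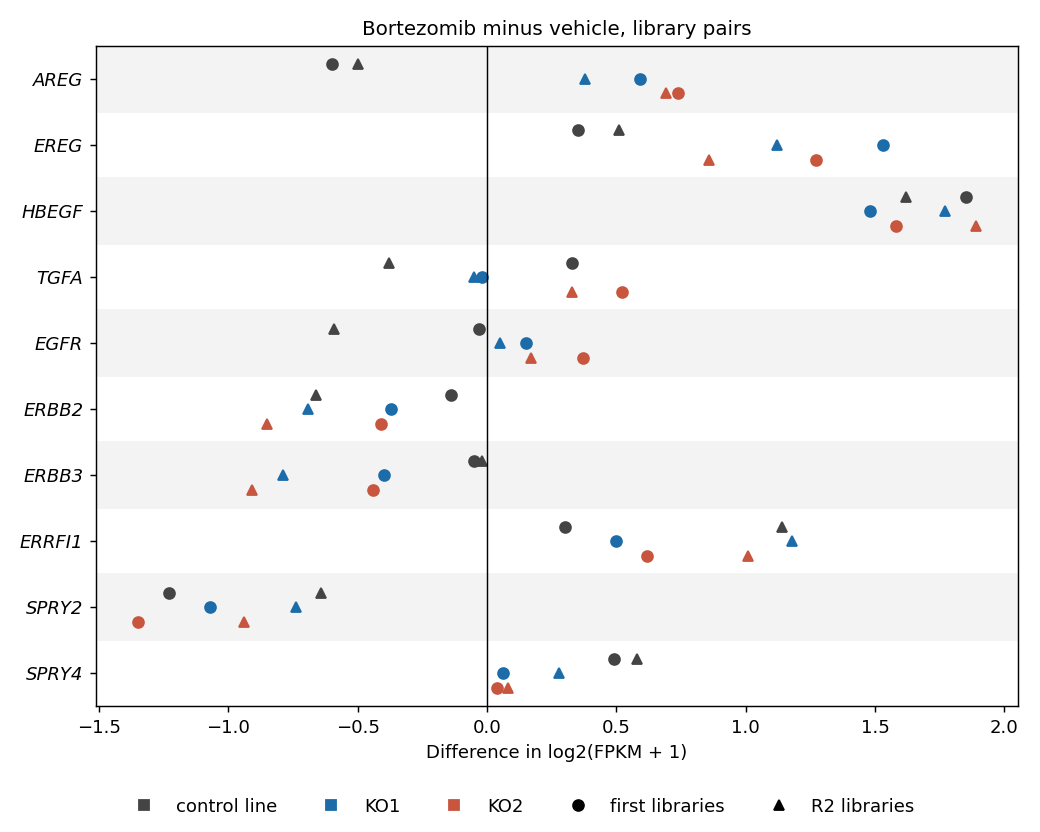
Difference of log2(FPKM + 1) between bortezomib and vehicle for each gene, 1 point per library pair of the same line and position (circles first libraries, triangles R2; grey control line, blue KO1, red KO2). AREG is the gene whose control pairs (-0.60 and -0.50) lie well on the opposite side of 0 from all 4 knockout pairs (0.38 to 0.74).

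Among the ligands, HBEGF, which encodes heparin-binding EGF-like growth factor, showed the largest response. It was at 1.32 and 4.68 FPKM in control vehicle and 7.37 and 16.5 in control bortezomib. In KO1 it was at 3.41 and 3.27 with vehicle and at 11.3 and 13.6 with bortezomib. KO2 had 1.6 and 1.98 with vehicle and 6.79 and 10.1 with bortezomib. All 6 bortezomib libraries were above all 6 vehicle libraries, and the ratios within pairs ran from 3.31 to 5.58. The mean difference over the 3 lines was 1.70 ± 0.27 (log2 units, SE; limma adjusted p = 0.00443), and it was called with each of the 12 libraries left out in turn. By line, where no call was made without it (adjusted p = 0.14, 0.228 and 0.175), the block gave 1.74 ± 0.16 for the control line, 1.62 ± 0.16 for KO1 and 1.74 ± 0.16 for KO2 (limma adjusted p = 1.69e-04, 2.70e-04 and 1.86e-04).

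EREG encodes epiregulin, a ligand of EGFR and ERBB4. Its FPKM were 37.5 and 115 in control vehicle and 48.2 and 165 in control bortezomib. KO1 had 102 and 180 with vehicle and 295 and 392 with bortezomib, the highest levels of any member here. In KO2 they were 57.7 and 97.9 with vehicle and 140 and 179 with bortezomib. The treatment groups did not overlap in KO1 or KO2, and overlapped in the control line, where the R2 vehicle library was above the first bortezomib library. Over the 3 lines the difference was 0.94 ± 0.41 without the block (limma adjusted p = 0.178) and 0.94 ± 0.10 with it (adjusted p = 5.69e-05), and the second call was kept with any 1 library left out. With the block EREG rose by 1.32 ± 0.17 in KO1 (limma adjusted p = 8.96e-04) and 1.07 ± 0.17 in KO2 (0.00229), and the control line gave 0.43 ± 0.17 (0.0732); without the block the adjusted p were 0.636, 0.764 and 0.907.

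AREG encodes amphiregulin, a ligand of EGFR. In the control line it was at 33.9 and 119 FPKM with vehicle and at 22 and 83.6 with bortezomib. KO1 had 116 and 206 with vehicle and 174 and 269 with bortezomib. KO2 had 76.2 and 107 with vehicle and 128 and 173 with bortezomib. Bortezomib libraries were lower than their vehicle partners in both control pairs, at 0.651 and 0.705 times, and higher in all 4 knockout pairs, at 1.3 to 1.67 times, and the groups overlapped in the control line and KO1. With the replicate block AREG fell by 0.55 in the control line (SE 0.15, limma adjusted p = 0.0225) and rose by 0.48 ± 0.15 in KO1 (0.0415) and by 0.71 ± 0.15 in KO2 (0.00944). Without the block the adjusted p were 0.88, 0.943 and 0.913. The control call was lost when any of the 4 control libraries was left out (adjusted p up to 0.146). The KO1 call was kept in 3 of 12 such fits and the KO2 call in 9 of 12.

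TGFA, the gene of transforming growth factor alpha, was at 2.77 and 8.48 FPKM in control vehicle and 3.75 and 6.26 in control bortezomib. KO1 had 8.27 and 13.5 with vehicle and 8.17 and 13 with bortezomib. KO2 had 7.67 and 13.7 with vehicle and 11.4 and 17.5 with bortezomib. Vehicle and bortezomib overlapped in each line, and the difference over the 3 lines was 0.12 ± 0.29 (limma adjusted p = 0.842; with the block 0.12 ± 0.10, adjusted p = 0.328).

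EREG and AREG together made up 86.3% to 96.1% of the summed FPKM of the 4 ligands. Their ratio shifted with bortezomib in every pair. EREG over AREG was 1.11 and 0.974 in control vehicle and 2.19 and 1.98 in control bortezomib. The same ratio was 0.879 and 0.873 in KO1 vehicle against 1.69 and 1.46 in KO1 bortezomib, and 0.757 and 0.915 in KO2 vehicle against 1.1 and 1.04 in KO2 bortezomib. The vehicle libraries of each line were thus below its bortezomib libraries without overlap. HBEGF made up between 0.81% and 9.06% of the ligand sum and was highest in the 2 control bortezomib libraries.

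**Figure D3:**
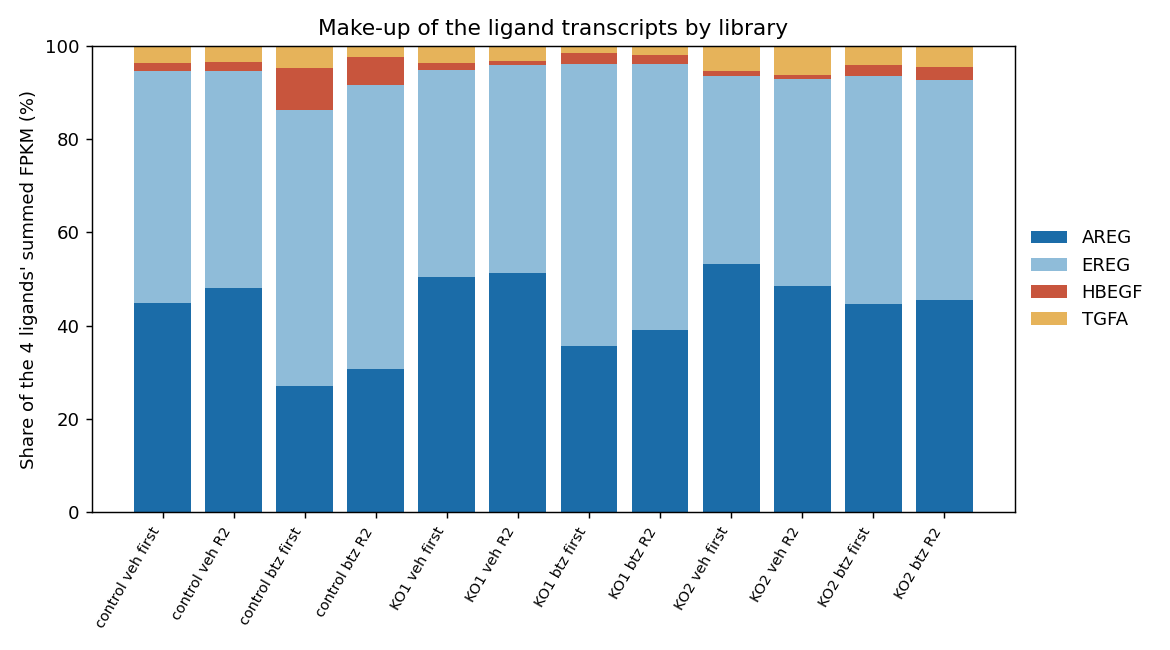
Share of AREG, EREG, HBEGF and TGFA in their summed FPKM, 1 bar per library (veh, vehicle; btz, bortezomib; first, library without suffix or R1). AREG and EREG fill 86.3% to 96.1% of each bar, and the AREG part is smallest in the 2 control bortezomib libraries, at 27.1% and 30.8%.

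Of the receptors, EGFR (ENSG00000146648) was at 35.4 and 86.4 FPKM in control vehicle and 34.6 and 57.1 in control bortezomib. KO1 had 52 and 71.1 with vehicle and 57.7 and 73.6 with bortezomib. KO2 had 35.2 and 50 with vehicle and 45.8 and 56.4 with bortezomib. All neighbouring groups in the order of EGFR means overlapped. Over the 3 lines the difference was 0.02 ± 0.29 (limma adjusted p = 0.978), and with the block 0.02 ± 0.09 (0.878). The control pairs were lower with bortezomib, by 0.03 and 0.59 log2 units, and the 4 knockout pairs higher, by 0.05 to 0.37.

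ERBB2 (ENSG00000141736) was at 8.66 and 17.5 FPKM in control vehicle and 7.76 and 10.7 in control bortezomib. In KO1 it was at 13.1 and 25.7 with vehicle and at 9.86 and 15.6 with bortezomib. The KO2 values were 12.3 and 25.2 with vehicle and 9.01 and 13.5 with bortezomib. Each bortezomib library was below its vehicle partner, at 0.538 to 0.895 times, although the groups overlapped in every line through the spread between first and R2 libraries. The difference of -0.52 ± 0.29 over the 3 lines was not called without the block (limma adjusted p = 0.292) and was called with it (SE 0.10, adjusted p = 0.00206), with any 1 library left out. The gene span of ERBB2 overlaps those of MIEN1 and PGAP3 on the opposite strand, which reached 7.51 and 11.1 FPKM. Whether the counting used strand is not given in the sources used here, so the overlap could have raised or lowered the ERBB2 count.

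ERBB3 (ENSG00000065361) was below 1 FPKM in 10 of 12 libraries. It was at 0.349 and 0.716 in control vehicle and 0.304 and 0.687 in control bortezomib. In KO1 the vehicle libraries had 0.949 and 2.17 and the bortezomib libraries 0.472 and 0.826. In KO2 the vehicle libraries had 0.863 and 2.29 and the bortezomib libraries 0.378 and 0.753. The vehicle libraries of both knockouts were above their bortezomib libraries without overlap, and the control groups overlapped. Fitted without the filter on low genes, ERBB3 differed by -0.44 ± 0.21 over the 3 lines (limma adjusted p = 0.345 over 32192 genes), and with the block by -0.44 ± 0.10 (adjusted p = 0.0349, with 20.6% of these genes called).

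Of the inhibitors, ERRFI1 (ENSG00000116285) was at 19.3 and 12.5 FPKM in control vehicle and 23.9 and 28.9 in control bortezomib. KO1 had 20.6 and 13.1 with vehicle and 29.6 and 31 with bortezomib. KO2 had 23.4 and 19.8 with vehicle and 36.6 and 41 with bortezomib. Vehicle and bortezomib did not overlap in any line, and within vehicle the R2 library was the lower one in each line. ERRFI1 rose by 0.79 ± 0.21 over the 3 lines without the block (limma adjusted p = 0.0392), a call kept in 2 of 12 fits that left out 1 library and lost without each library except the first ones of control vehicle and KO1 vehicle (adjusted p up to 0.11). With the block it was 0.79 ± 0.14 (limma adjusted p = 0.00108), called in 12 of 12 such fits.

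SPRY2 (ENSG00000136158) was at 3.15 and 3.31 FPKM in control vehicle and 0.772 and 1.77 in control bortezomib. KO1 had 7.3 and 6.38 with vehicle and 2.96 and 3.44 with bortezomib. KO2 had 8.01 and 6.94 with vehicle and 2.54 and 3.14 with bortezomib. No bortezomib library overlapped the vehicle libraries of its line, and the ratios within pairs ran from 0.245 to 0.538. SPRY2 fell by 0.99 over the 3 lines (SE 0.16, limma adjusted p = 0.0045; with the block SE 0.10, adjusted p = 6.56e-05), and both calls were kept with any 1 library left out.

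SPRY4 (ENSG00000187678), the other Sprouty gene, moved the other way. It was at 2.27 and 2.39 FPKM in control vehicle and 3.57 and 4.08 in control bortezomib, without overlap. KO1 had 3.43 and 4.03 with vehicle and 3.62 and 5.11 with bortezomib, and KO2 3.59 and 5.81 with vehicle and 3.71 and 6.19 with bortezomib, both with overlap. With the block SPRY4 rose by 0.54 ± 0.14 in the control line (limma adjusted p = 0.0213), and KO1 gave 0.17 ± 0.14 (0.408) and KO2 0.06 ± 0.14 (0.803). Its mean over the lines, 0.25 ± 0.08 with the block (limma adjusted p = 0.0279), was kept in 3 of 12 fits with 1 library left out and was 0.25 ± 0.18 (0.405) without the block. The ratio of SPRY2 to SPRY4 went from 1.39 and 1.38 in control vehicle to 0.216 and 0.432 in control bortezomib, and was likewise above 1 in all 4 knockout vehicle libraries and below 1 in all 4 knockout bortezomib libraries. The gene span of SPRY4 overlaps SPRY4-IT1 on the opposite strand, which reached 8.32 FPKM against 6.19 for SPRY4. If strand was not used, this overlap could have raised or lowered the SPRY4 count.

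The second comparison was of each NFE2L1 knockout with the control line in vehicle. By library pair, ERBB2, ERBB3, TGFA, ERRFI1, SPRY2 and SPRY4 were higher in both knockouts, and the tests without the block called no member. KO1 and KO2 share the control libraries, so their differences are not independent. Without the block limma called 0 members, with 0.213% of genes called for KO1 and 0.23% for KO2. An unadjusted limma p under 0.05 was reached by 1 and 2 members, beside 538 and 433 of all 12194 tested genes. The block gave 0 members for KO1 (5.95% of genes) and 2 for KO2 (4.91%), namely HBEGF and SPRY4. In this comparison the block rests mostly on the R2 libraries, since R1 is a knockout suffix and only control libraries lack one. Treating the unnumbered control libraries as R1 (a block with 2 levels) gave 2 members for KO1 (7.96% of genes) and 3 for KO2 (4.89%). In the pairs, 6 members (ERBB2, ERBB3, TGFA, ERRFI1, SPRY2 and SPRY4) were higher in the knockout in all 4 pairs, as were 21.7% of tested genes. The 6 include ERBB3, which is not among the tested genes. Here the first pair sets R1 beside the unnumbered control library. No member was lower in all 4, against 16.3% of tested genes. With the suffix block ERBB2 gave 0.58 ± 0.20 in KO1 and 0.52 ± 0.20 in KO2 (limma adjusted p = 0.14 and 0.201). ERRFI1 gave 0.08 ± 0.28 and 0.45 ± 0.28 (0.897 and 0.415). ERBB3, with the block and without the filter on low genes, gave 0.80 ± 0.21 and 0.79 ± 0.21 (0.2 and 0.223).

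SPRY2 was at 3.15 and 3.31 FPKM in the control line, 7.3 and 6.38 in KO1 and 8.01 and 6.94 in KO2. Both knockout groups lay above the control group without overlap. The differences were 0.89 ± 0.27 for KO1 and 1.0 ± 0.27 for KO2 without a block (limma adjusted p = 0.571 and 0.419), and 0.72 ± 0.21 and 0.83 ± 0.21 with the suffix block (0.0834 and 0.06). With the 2-level block they were called, at limma adjusted p = 0.0207 and 0.016.

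For TGFA, 2 of 4 knockout vehicle libraries lay below the R2 control library, so the groups overlapped, but within each position the knockout was at 1.59 to 2.98 times the control. The differences were 0.96 ± 0.51 for KO1 and 0.92 ± 0.51 for KO2 (limma adjusted p = 1 for both), and with the suffix block 0.80 ± 0.20 (0.0532) and 0.76 ± 0.20 (0.0718). The 2-level block called both, at limma adjusted p = 0.0122 and 0.0196.

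SPRY4 with vehicle did not overlap between control (2.27 and 2.39 FPKM) and either knockout (3.43 to 5.81). Its KO2 difference was 0.75 ± 0.30 without a block (limma adjusted p = 1) and 0.92 ± 0.17 with it (0.0166), a call lost when the R2 control vehicle library or either KO2 vehicle library was left out. In KO1 it gave 0.50 ± 0.30 without the block (limma adjusted p = 1) and 0.67 ± 0.17 with it (0.0525). HBEGF in KO2 was 0.86 log2 units lower with the block (SE 0.18, limma adjusted p = 0.0303) and 0.38 lower without (SE 0.46, adjusted p = 1); its pairs pointed in opposite directions, at 1.21 times the control in the first libraries and 0.423 times in R2. The block call of HBEGF was lost in 5 of 12 fits with 1 library left out, those without the R2 control vehicle library, either KO1 bortezomib library or either KO2 vehicle library.

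AREG and EREG differed between the positions. AREG in KO1 vehicle was at 3.42 and 1.74 times control vehicle, and in KO2 vehicle at 2.25 and 0.902 times. EREG was at 2.71 and 1.56 times in KO1 and 1.54 and 0.848 times in KO2. Neither was called in vehicle, with or without the suffix block. In KO2 the sign depended on the block, with 0.50 ± 0.74 for AREG and 0.19 ± 0.71 for EREG without it, and -0.12 ± 0.18 and -0.36 ± 0.19 with it.

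**Figure D4:**
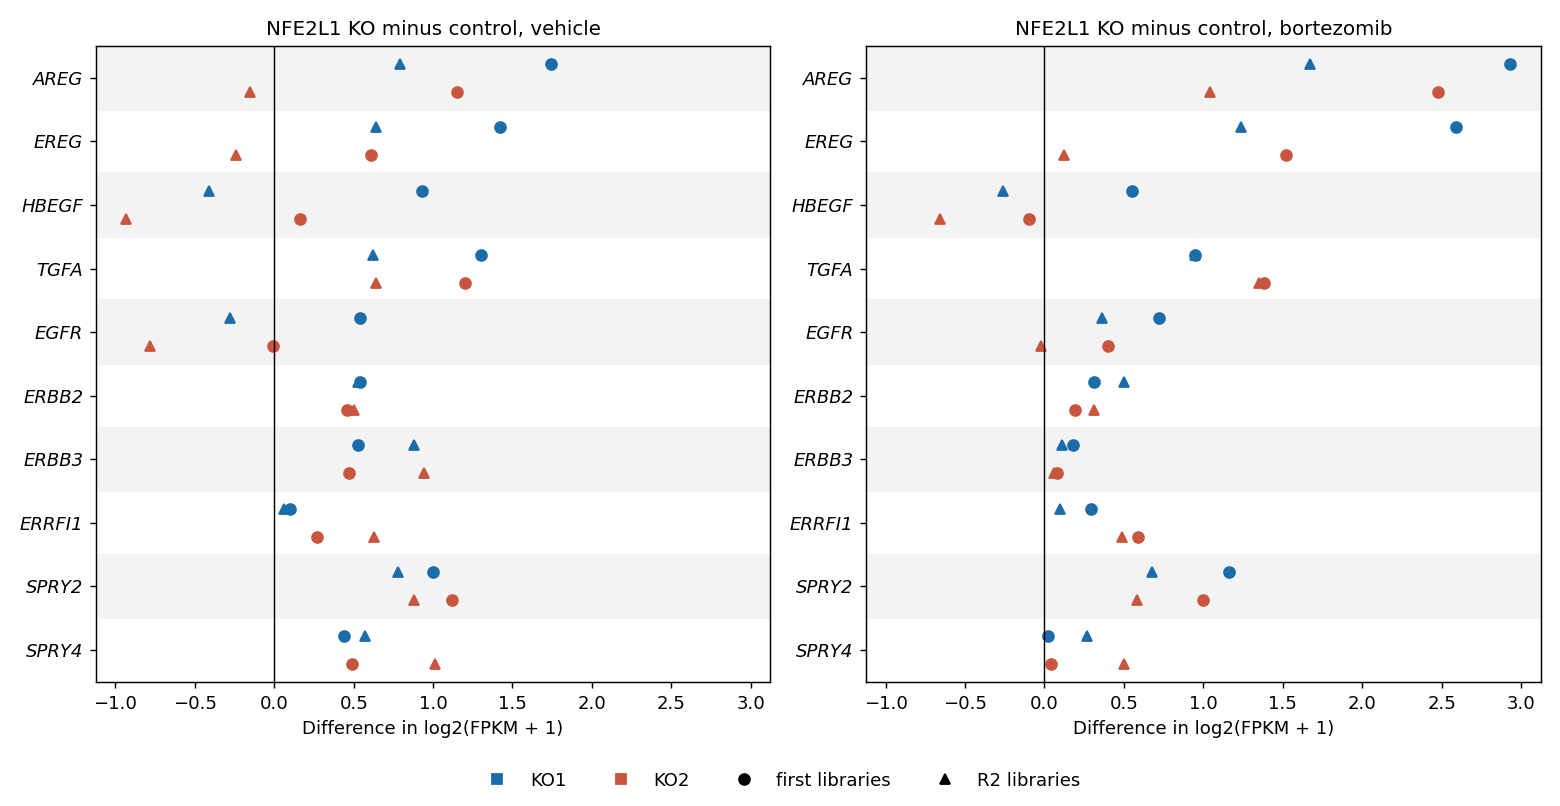
Difference of log2(FPKM + 1) between knockout and control libraries with vehicle (left) and bortezomib (right), 1 point per pair (circles, R1 against the unnumbered control library; triangles, R2 against R2; blue KO1, red KO2). With bortezomib the 4 AREG points lie between 1.04 and 2.93 and the 4 TGFA points between 0.95 and 1.38.

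The third comparison was of the knockouts with the control line under bortezomib. AREG and TGFA were higher in both knockouts, EREG was higher in KO1 and HBEGF was lower in KO2 when the suffix block was used. Without the block limma called no member, with 0.107% of genes called for KO1 and 0.0656% for KO2. An unadjusted limma p under 0.05 was reached by 3 members in each, beside 671 and 477 of all 12194 tested genes. The suffix block called 3 members for KO1 (7.54% of genes) and 3 for KO2 (4.81%), and the 2-level block 4 for KO1 (12.8%) and 3 for KO2 (6.47%). In all, 8 members, that is all except EGFR and HBEGF, were higher in the knockout in all 4 pairs, as were 29.7% of tested genes, and no member was lower in all 4, against 21.6%. The 8 include ERBB3, which is not among the tested genes. The 2 knockouts again share the control libraries. As in vehicle, the suffix block rests mostly on the R2 libraries here. Its SE and adjusted p therefore do not stand for 2 independent pairs.

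AREG with bortezomib was at 22 and 83.6 FPKM in the control line, 174 and 269 in KO1 and 128 and 173 in KO2. Every knockout library lay above both control libraries, at 7.9 and 3.22 times its partner in KO1 and 5.79 and 2.07 times in KO2. The differences were 2.30 ± 0.74 for KO1 and 1.76 ± 0.74 for KO2 without the block (limma adjusted p = 0.509 and 1), and 1.68 ± 0.18 and 1.14 ± 0.18 with it (0.00149 and 0.00892). The KO1 call was kept with any 1 library left out, and the KO2 call was lost without the R2 bortezomib library of the control line or of KO2 (adjusted p up to 0.115).

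EREG with bortezomib was at 48.2 and 165 FPKM in the control line, 295 and 392 in KO1 and 140 and 179 in KO2. KO1 lay above the control without overlap and KO2 overlapped it. The block gave 1.37 ± 0.19 for KO1 (limma adjusted p = 0.00468) and 0.27 ± 0.19 for KO2 (0.484), against 1.91 ± 0.71 (0.689) and 0.82 ± 0.71 (1) without it. Without the R2 bortezomib library of the control line or of KO1 the first call was lost.

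TGFA with bortezomib was at 3.75 and 6.26 FPKM in the control line, 8.17 and 13 in KO1 and 11.4 and 17.5 in KO2, with no overlap between control and knockouts. The block gave 0.79 ± 0.20 for KO1 (limma adjusted p = 0.0481) and 1.21 ± 0.20 for KO2 (0.0134), and without it the differences were 0.95 ± 0.51 and 1.37 ± 0.51 (adjusted p = 1 for both). The KO1 call was kept in 3 of 12 fits with 1 library left out, with values down to 0.25, and the KO2 call in 10 of 12, lost without either R2 bortezomib library of the 2 lines. HBEGF in KO2 was 0.86 log2 units below the control with the block (SE 0.18, limma adjusted p = 0.0327), a call kept in 2 of 12 such fits, and 0.38 below without it (SE 0.46, adjusted p = 1). SPRY2 differed by 0.92 ± 0.27 in KO1 and 0.79 ± 0.27 in KO2 without the block (limma adjusted p = 0.392 and 0.902), and by 0.75 ± 0.21 and 0.62 ± 0.21 with it (0.0621 and 0.139). Under bortezomib SPRY2 in the knockouts, 2.54 to 3.44 FPKM, was close to its level in the control line with vehicle, 3.15 and 3.31.

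Whether bortezomib acted differently in the knockouts was tested as an interaction, the mean bortezomib effect of KO1 and KO2 minus that of the control line. No member and no gene was called by limma, without the block (0% of genes; 115 genes and 0 members at an unadjusted p under 0.05) or with it (0%; 1305 genes). AREG had the largest value of the members, 1.15, with an SE of 0.91 without the block (limma adjusted p = 1) and 0.18 with it (adjusted p = 0.0775). In limma's voom on the recovered reads with the block, AREG was the 1 member called, at 1.16 (adjusted p = 0.00629), with 1.01% of genes called. EREG had 0.76 ± 0.20 with the block (limma adjusted p = 0.218), EGFR 0.50 ± 0.20 (0.41) and SPRY4 -0.42 ± 0.18 (0.445).

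Other genes of the pathway were examined from lists covering further ligands, ligand shedding, further inhibitors, the RAS-ERK cascade and transcripts known to follow ERK activity. The lists were chosen with earlier results of these data known, so counts within them are not tests of the pathway. With bortezomib over the 3 lines, without the block, limma called 1 higher and 0 lower of 2 tested further ligands, 0 of 7 shedding genes, 1 higher and 1 lower of 15 inhibitors, 1 higher of 18 cascade genes and 1 lower of 12 ERK-output genes. In that fit 11.6% of all tested genes were called. With the block the counts were 1 higher and 1 lower of 2, 1 and 2 of 7, 4 and 3 of 15, 9 and 2 of 18, and 3 and 5 of 12, beside 54.9% of all genes. The list medians were 0.37 for further ligands, -0.10 for shedding, 0.13 for inhibitors, 0.27 for the cascade and -0.09 for ERK output, beside -0.01 for all tested genes. EGF, EPGN, NRG2, NRG3, NRG4 and ERBB4 did not reach the filter, with ERBB4 at most 0.0166 FPKM.

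NRG1, which encodes neuregulin 1, a ligand of ERBB3 and ERBB4, rose by 1.09 ± 0.25 over the 3 lines (limma adjusted p = 0.0233), a call kept in 4 of 12 fits with 1 library left out (adjusted p up to 0.0767) and, with the block, in 12 of 12. Its mean was 37.8 ± 18.6 FPKM (SD, n = 2) in control vehicle and 64.9 ± 15.8 in control bortezomib, 35.1 ± 6.56 and 82.7 ± 4.89 in KO1, and 33.1 ± 1.94 and 78.7 ± 11.2 in KO2, without overlap in any line. KSR1, the gene of a scaffold of the RAF-MEK-ERK cascade, rose by 0.73 ± 0.14 (limma adjusted p = 0.0109; with the block SE 0.09, adjusted p = 2.23e-04), in 12 of 12 such fits too. DUSP4, a phosphatase gene induced by ERK, fell by 1.03 (SE 0.27, limma adjusted p = 0.0362; with the block SE 0.14, adjusted p = 3.19e-04), the first a call kept in 2 of 12 such fits. In the fit with the block only, IER3, an immediate early response gene, rose by 1.0 ± 0.15 (limma adjusted p = 4.93e-04), CCND1, the gene of cyclin D1, fell by 1.02 (SE 0.13, 2.29e-04) and LIF, the gene of leukaemia inhibitory factor, fell by 0.81 (SE 0.11, 2.48e-04).

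Line by line, pathway calls came from the fit with the block alone. Of the 12 tested ERK-output genes, 2 were higher and 7 lower in the control line, where 32.4% of all genes were called (median -0.61, all genes -0.01). The counts were 4 and 3 in KO1, beside 27.7% of all genes (median 0.12, all genes 0.00), and 1 and 4 in KO2, beside 27% (median -0.19, all genes -0.02). In the control line MAP2K2 (MEK2), IER3 and KSR1 had the largest rises, 0.98, 0.92 and 0.85, and IL11, DUSP4 and LIF the largest falls, with values of -1.50, -1.34 and -1.02 (limma adjusted p = 0.00384 to 0.0252). In KO1 the largest rises were those of IER3 (1.52), IL11 (1.30) and NRG1 (1.22), and the largest falls those of CCND1 (-1.34), DUSP4 (-0.93) and LIF (-0.82), at limma adjusted p = 0.00266 to 0.0223. In KO2 they were NRG1 (1.22), CBL (0.82), a ubiquitin ligase gene of the receptors, and SPRED3 (0.71), and CCND1 (-0.91), DUSP4 (-0.81) and ADAM10 (-0.75), which encodes a ligand-shedding protease, at limma adjusted p = 0.00256 to 0.039. With 1 library left out, each of these calls in the control line was lost without 2 of its 4 libraries, the R2 ones for the rises (IER3 0.51 to 1.32, MAP2K2 0.63 to 1.33) and the first ones for the falls (LIF -1.32 to -0.73). In KO1 the calls of IER3, NRG1 and CCND1 were kept in 12 of 12 fits (CCND1 -1.70 to -0.99), those of IL11 (0.83 to 1.78) and LIF in 10, both lost without the R2 vehicle library of KO1 and also without its R2 bortezomib library for IL11 and its first for LIF. The DUSP4 call in KO1 was kept in 9 (-1.38 to -0.48), lost without the first vehicle library or either bortezomib library of KO1. In KO2 the NRG1 call was kept in 12 of 12, CBL in 11 (0.57 to 1.06, lost without the first KO2 vehicle library), ADAM10 in 10, CCND1 and SPRED3 (0.43 to 0.99) in 9, all lost only without KO2 libraries, and DUSP4 in 3 (-1.15 to -0.46). IL11, the gene of interleukin 11, was at 22.1 ± 7.07 FPKM (SD, n = 2) in control vehicle and 7.51 ± 4.14 in control bortezomib. In KO1 it was at 4.35 ± 0.871 with vehicle and 13 ± 6.94 with bortezomib, without overlap in either line. In KO2 it was at 3.89 ± 0.471 and 7.52 ± 3.36, also without overlap, and was not called (0.75 ± 0.32 with the block, limma adjusted p = 0.113). The interaction of IL11 was 2.52, with limma adjusted p = 1 without the block and 0.0669 with it.

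Between knockout and control, no pathway gene was called without the block. With it, in vehicle, IL11 was lower in KO1 (-2.34 ± 0.37, limma adjusted p = 0.00849) and KO2 (-2.46 ± 0.37, 0.00691), and RHBDL2, a rhomboid protease gene, was higher in both (0.89 ± 0.20 and 0.86 ± 0.20, adjusted p = 0.0375 and 0.0481). RHBDL2 averaged 0.375 FPKM in control vehicle, 1.4 in KO1 vehicle and 1.37 in KO2 vehicle. It reached the filter of 1 FPKM only through the knockout groups, so the filter favours a call in this direction. DUSP5 was lower (limma adjusted p = 0.0429) and PTPN2 higher (0.0463) in KO1. With bortezomib, DUSP6, another ERK-induced phosphatase gene, was higher in KO1 (1.22 ± 0.21, limma adjusted p = 0.0104) and KO2 (1.05 ± 0.21, 0.0251), and PHLDA1 (0.0286) and DUSP4 (0.0464) were higher in KO1. DUSP6 averaged 0.452 FPKM in control bortezomib, 2.36 in KO1 bortezomib and 2 in KO2 bortezomib, and 0.952 in control vehicle. The same limit of the filter therefore holds for DUSP6. Among the 12 ERK-output genes, 4 were higher and 0 lower in KO1 with bortezomib, beside 7.54% of all genes (median with the block 0.64, all genes 0.06), and 1 and 0 in KO2, beside 4.81% (median 0.48, all genes 0.06). Both counts include DUSP6, which is the 1 call in KO2, and the list was chosen with earlier results known. The RHBDL2 and PTPN2 calls were lost in all 12 fits with 1 library left out, the DUSP5 call was kept in 3 of 12 (-1.16 to -0.54, adjusted p up to 0.372), and the IL11 calls were kept in 10 of 12, lost without the R2 vehicle library of the control line or of the knockout compared. Of the bortezomib calls, that of DUSP6 in KO1 was kept in 10 of 12 fits and each of the others in 4 or fewer.

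Among the tested genes most like each member over the 6 group means of log2(FPKM + 1), as a description with no test, were RASSF10 (r = 0.9899) and STAG3L4 for AREG, NOP14 for EREG (0.9919), with CYP27B1 and SERPINB8, and PRRC1 for HBEGF (0.9997), with GOLGA2 and BTN2A2. For TGFA they were POC1B (0.9958), PLXNB1 and RPL17. EGFR was closest to RHBDF2 (0.9880), which belongs to the ligand-shedding list, then C11orf70 and MYL12A, and L3MBTL3 (0.9945) and DDR1 were among those closest to ERBB2. ERRFI1 was closest to DESI2 (0.9969), RND1 and KIF5B, SPRY2 to LRRC16A (0.9969), FOXM1 and ABR, and SPRY4 to SRSF11 (0.9856), MPP3 and ZNF611. They were picked from 12194 genes for this likeness, over 6 points that come from the same 12 libraries.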

How the data were processed

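The authors deposited FPKM values for 58676 genes in 12 libraries, with a length per gene. Per the submitters' processing notes, CASAVA, STAR 2.5, HTSeq 0.6.1, DESeq2 and the build hg19 were used. The positions in the deposited table are instead those of GRCh38: all 58676 gene IDs were found in GENCODE 29 and 95.2% had the same position there, so coordinates are given as GRCh38. FPKM times length came out as whole multiples of 1 read for 100% of values (within 0.01 read), which gave the depths of 13211608 to 23819258 reads and the counts used in voom.

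Groups came from the labels. The limma package (3.58.1, under R 4.3.3; eBayes with trend) was used; its model was fitted to log2(FPKM + 1), with 1 mean per group, over the 12194 genes whose mean FPKM reached 1. Benjamini-Hochberg adjustment ran over all of them, and a gene was called at an adjusted p under 0.05. Differences are on that scale, which understates changes of low genes. An exact permutation test of 2 against 2 libraries cannot go under p = 0.333 and was not used. A second fit added the title suffix as a replicate block with the levels R1, R2 and none. The pairing comes from these suffixes: over 15 pairs of groups, the replicate differences correlated across genes with r = 0.696 to 0.89 (median 0.811).

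The alternatives were a pseudocount of 0.1, filters of 5 and none, other scalings, voom, a block with 2 levels and leaving out each library. A block without a filter and leave-outs with the block were added after seeing the data. The members and gene lists were chosen with earlier results of these data known. By rule, pathway genes were named as the 3 largest rises and falls per contrast among called genes, and genes most like a member as the 3 with the highest r. A few genes that these rules select are not reported here. Scripts were tested on simulated data. Promoter windows are RefSeq's, for 9 of 10 members. Python 3.11.15 with pandas 2.3.3 and numpy 2.4.6 was used.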

Additional observations from a re-analysis of the deposited data

Results flagged for a closer look

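AREG is listed because its bortezomib effect had opposite signs by genotype: both control pairs were lower with bortezomib and all 4 knockout pairs higher. The share of all tested genes with this sign pattern is not given here, so how common the pattern is cannot be judged. AREG, and EGFR below, were picked by the same libraries that enter their differences. Those differences are therefore not separate tests of the pattern. The difference of the effects was 1.15 log2 units, with an SE of 0.91 without the replicate block (limma adjusted p = 1) and 0.18 with it (adjusted p = 0.0775). It was called in voom with the block, at 1.16 (adjusted p = 0.00629).

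EGFR is listed for the same reason, with a difference of 0.50 log2 units (limma adjusted p = 1 without the block and 0.41 with it). Its control pairs changed by -0.03 and -0.59 and its knockout pairs by 0.05 to 0.37, so 1 control pair lay close to 0.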

How the results depend on the processing

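Most calls depended on the replicate block. Without it, 3 members were called for the mean bortezomib effect and 0 in each other comparison. With the replicate block by title suffix, the counts were 6 for the mean, 5, 6 and 6 for bortezomib in the control line, KO1 and KO2, 2 for KO2 against control in vehicle, and 3 and 3 for KO1 and KO2 against control with bortezomib. With the 2-level replicate block they were 6 for the mean, then 4, 5 and 5 for bortezomib by line. Against control they were 2 and 3 in vehicle (7.96% and 4.89% of all genes) and 4 and 3 with bortezomib (12.8% and 6.47%). With voom and the replicate block they were 6, then 6, 6 and 6, then 4 and 5 in vehicle, 4 and 3 with bortezomib, and 1 for the interaction, beside 58.2%, then 37.6%, 33% and 33.1%, then 9.84% and 8.72%, 12.8% and 9.09%, and 1.01% of all genes. With the replicate block and no filter on low genes they were 6 for the mean, beside 20.6% of 32192 genes. The other counts in that setting were 2, 2 and 4 by line, and 2 for KO1 against control with bortezomib. For these other counts, and for bortezomib with the 2-level block, no share of all genes is given here. They therefore cannot be compared between settings. The cause of the differences between settings was not tested.

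Leaving out 1 library at a time, with and without the block, moved the count for the mean between 2 and 6. The ranges were 0 to 6 in the control line, 0 to 6 in KO1 and 0 to 7 in KO2, then 0 to 1 and 0 to 4 for KO1 and KO2 against control in vehicle, and 0 to 3 for each with bortezomib. These ranges pool fits without and with the block. With all libraries, those fits called 11.6% and 54.9% of all genes for the mean. The ranges therefore also hold the difference made by the block, and shares for the left-out fits are not given here. Directions reversed with the replicate block for AREG (-0.12) and EREG (-0.36) in KO2 vehicle against control, under the suffix block, voom with it and no filter with it. Of the member values not called with or without the suffix block, 4 also reversed with it: against control in KO1 vehicle for EGFR (0.13 to -0.16) and HBEGF (0.26 to -0.22), in KO1 with bortezomib for HBEGF (0.14 to -0.33), and in KO2 with bortezomib for EGFR (0.19 to -0.11). When 1 library was left out, the sign also changed for the mean bortezomib effect of EGFR (-0.19 to 0.23), AREG (-0.10 to 0.53) and TGFA (-0.10 to 0.34), and for the control-line effect of AREG (-1.49 to 0.39) and EREG (-0.44 to 1.31). The same held in KO2 vehicle against control for AREG (-0.39 to 1.39), EREG (-0.61 to 0.98) and HBEGF (-1.03 to 0.26), in KO2 with bortezomib against control for EREG (-0.06 to 1.70) and HBEGF (-1.09 to 0.15), and in the interaction for EREG (-0.12 to 1.64). It held as well for 22 further member values that were not called in either fit, such as HBEGF (-0.39 to 0.90) and EGFR (-0.50 to 0.76) in KO1 vehicle against control. Of 524 other values of single genes under settings without a block, 519 kept direction and side of the threshold, 3 lost a call, 2 gained one and 0 reversed; under settings with a replicate block, 202 of 308 gained a call. The 2 libraries per group limit every call, and the low reads of ERBB3 and SPRY2 limit those genes.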
